A study of Vitis vinifera with 156 samples.

Results

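Buds of the wine grape Cabernet Sauvignon (Vitis vinifera) held at a constant 2 °C were followed from day 7 to day 69, and the days were compared with each other. The 24 libraries were chosen by their labels, which give 2 °C for both phases of the experiment, from 156 libraries in all. Sampling fell on 8 days, with 3 libraries per day: days 7, 13, 20 and 26, and then days 34, 41, 55 and 69. The buds were in endodormancy and sat on cuttings in a growth chamber. Day 26 ended the first phase for other cuttings, which were moved to a fluctuating temperature, whereas the buds described here stayed at 2 °C. Libraries of constant 7 and 11 °C on the same days (24 each) and 3 libraries taken before treatment on day 0 were used for comparison. Every library at 2 °C carries its own sample number, but the labels do not say whether those of a day came from separate vines, so p-values measure the spread between these libraries, which may be technical.

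Endodormancy is the state in which a bud does not grow because of conditions within the bud itself, even where the surroundings would allow growth. Long exposure to low, non-freezing temperature releases it, and the same cold raises the freezing tolerance of grapevine buds, a process called cold acclimation. In woody plants, acclimation is known for changes in dehydrins, in soluble sugars and in membrane lipids. The deposited table has no column of gene identifiers, so genes of these groups, and markers of the bud, were not analysed here. A gene is named by the number of its line in the table, counted from 1 after the header.

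Libraries at 2 °C held between 116585 and 3925229 counts. All 3 libraries of day 7 (816780 to 985539) and replicate 1 of day 13 (116585) lay under 1000000, and depth therefore moved with the first days. A floor of 3 counts equals 25.73 CPM (counts per 1000000 counts of the library) in that day 13 library and 3.044 to 3.673 CPM on day 7. The 10 highest genes took 31.7% to 32.9% of the counts on day 7 and 37.5% to 42.9% on day 69. At an equal depth of 100000 counts, 8666 to 9129 genes would have been detected on day 7 and 7311 to 8437 on day 69. Log2 CPM of libraries of the same day correlated with a median r of 0.899 across genes, against 0.875 for libraries of different days. The lowest same-day value was 0.678. Positions on the library plate ran in the order of the days, so position and day cannot be told apart. In whole buds, fewer cells of a type and less RNA per cell cannot be told apart either.

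Expression at 2 °C changed in both directions across the 62 days between the first and last sampling. A straight line in day number was fitted to each gene with edgeR's quasi-likelihood test, and 1795 of 10120 genes had a slope at a Benjamini-Hochberg adjusted p under 0.05, which is 17.7%. Of these, 866 rose and 929 fell. The line spanned at least a 2-fold change in 1475 of them, and the median size was 1.39 on the log2 scale with a median standard error of 0.36, against 0.52 over all genes tested. The slope was called in 816 genes without day 7, in 890 without day 69, and in 1134, 438 and 1034 without replicate 1, 2 or 3. Genes with more counts were called more often. The slope was called in 11.7% of genes averaging under 10 CPM, in 19.3% of those from 10 to 100 CPM and in 25.6% of those over 100 CPM. In the last class 192 genes rose and 115 fell, whereas under 10 CPM 134 rose and 228 fell.

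The genes that rose took a growing part of the library. They held 14.9% to 17.3% of all counts in the day 7 libraries, 23.1% to 25.3% on day 26 and 30.1% to 38.8% on day 69. The genes that fell held 9.29% to 11% on day 7, 5.4% to 6.58% on day 26 and 2.57% to 3.1% on day 69. The libraries of day 69 and of day 7 did not overlap in either share, which describes the libraries that chose the genes and is not a test.

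Gene 34909 had the largest fitted rise under the naming rule. It had 2.08, 0 and 2.45 CPM on day 7, then 42.9, 4.31 and 7.59 on day 13, 4.2, 9.25 and 5.7 on day 20, and 50.9, 9.15 and 8.9 on day 26. It had 28.6, 15.8 and 39.7 CPM on day 34, 10.1, 51.7 and 24.5 on day 41, 51.9, 92.4 and 60.6 on day 55, and 128, 98.6 and 70.7 on day 69. The 3 libraries of day 69 lay above all libraries of days 7 to 41, and replicates of days 13, 26 and 41 were spread widely. The 42.9 CPM of day 13 stands for 5 counts in the shallow replicate 1, and the day 7 libraries held 2, 0 and 2 counts. Its line rose by 4.90 ± 0.57 (log2 over the 62 days, SE, edgeR adjusted p 8.18e-07), and by 4.38 without day 7.

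Gene 9282 had the other large rise. It had 6.25, 6.09 and 6.12 CPM on day 7, 17.2, 9.47 and 15.2 on day 13, 3.36, 10.6 and 13.1 on day 20, and 15.9, 26.4 and 22.7 on day 26. It had 8.65, 25.3 and 11.3 CPM on day 34, 11.7, 33.7 and 38.9 on day 41, 55.6, 32.8 and 70.8 on day 55, and 51.7, 103 and 193 on day 69. The libraries of days 55 and 69 overlapped, and every library of day 69 exceeded every library of days 7 to 41. The 17.2 CPM of day 13 stands for 2 counts, under the floor of that library. The line rose by 4.21 ± 0.38 (log2, SE, edgeR adjusted p 1.03e-08). Its slope was 0.45 ± 0.18 log2 per week up to day 26 and 0.48 ± 0.06 after it, and the change of slope was 0.03 ± 0.24 per week (edgeR adjusted p 0.995).

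Gene 5942 had the largest fitted fall under the naming rule, though not at every step. Its mean was 45.9 CPM on day 7 and 56.7 on day 13, and 6.27 on day 34 and 11.9 on day 41. It had 26.1, 63.9 and 47.7 CPM on day 7, 17.2, 31.9 and 121 on day 13, 15.9, 23.1 and 16 on day 20, and 5, 18.3 and 19.8 on day 26. It had 7.35, 1.66 and 9.79 CPM on day 34, 22.6, 4.94 and 8.15 on day 41, 3.71, 2.03 and 3.31 on day 55, and 1.86, 2.79 and 1.61 on day 69. All libraries of days 55 and 69 lay below all libraries of days 7 to 26. The 17.2 CPM of day 13 stands for 2 counts, under the floor of that library. The 1.61 CPM of day 69 also stands for 2 counts, under the floor of 2.41 CPM of its library. Libraries of days 55 and 69 held 2 to 13 counts of this gene, so the low end of the fall rests on few counts. The line fell by 4.51 ± 0.55 (log2, SE, edgeR adjusted p 1.61e-06).

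Gene 6616 fell unevenly. It had 55.3, 63.9 and 79.6 CPM on day 7, 8.58, 11.2 and 5.06 on day 13, 4.2, 4.62 and 0 on day 20, and 1.36, 3.05 and 5.26 on day 26. From day 34 to day 69 it lay between 0.433 and 5.43 CPM. Those libraries held 1 to 6 counts of this gene each, near the floor of 3 counts. A further fall after day 26 could therefore hardly be seen, and the late slope does not show that the fall had stopped. The 3 libraries of day 7 lay above every later library. Those of day 13 lay above all libraries of days 20, 34, 55 and 69 and overlapped with days 26 and 41. The 8.58 CPM of day 13 stands for 1 count, under the floor of that library. Day 20 against day 7 gave -4.16 ± 0.64 (log2, SE, edgeR adjusted p 0.00429). The slope was -1.62 ± 0.19 log2 per week up to day 26 and -0.05 ± 0.11 after it, a change of slope of 1.57 ± 0.28 per week (edgeR adjusted p 0.00721). Without day 7, whose libraries were shallow, the fitted line was -2.10 on the log2 scale with an adjusted p of 0.0965.

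**Figure D1:**
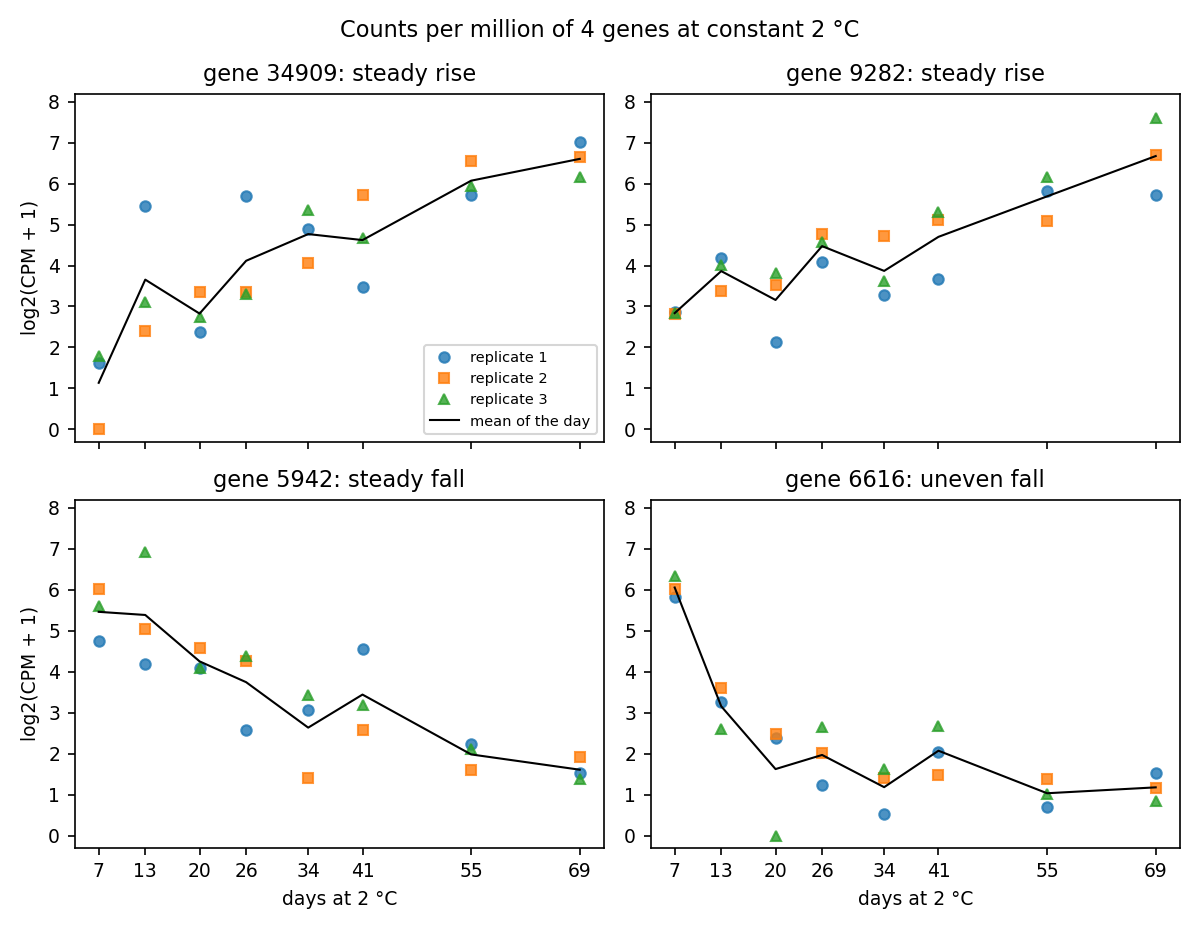
Level of 4 genes at 2 °C, as log2(CPM + 1), against days at 2 °C; each point is 1 library, its shape gives the replicate number, and the line joins the mean of each day. Genes 34909 and 9282 are higher and gene 5942 is lower on day 69 than on day 7, though not moving that way at every step. Gene 6616 is lower on every later day than on day 7.

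A single step between neighbouring sampling days held 0 or 1 called gene with all libraries, and the 4 largest counts of all pairs came from days 34, 55 and 69 against day 7 and from day 69 against day 13. With edgeR and an adjusted p under 0.05, 1 gene was called between days 13 and 7 (0.0088%) and 1 between days 34 and 26 (0.0088%). The other 5 steps had 0 called genes (0%). At an unadjusted p under 0.05 the 7 steps held 859, 1167, 715, 2109, 1314, 628 and 444 of 11368 genes in order of time, and DESeq2 called 10, 29, 0, 109, 9, 12 and 1. Without replicate 2 of day 34, edgeR called 445 genes for the step to day 34 and 281 for the step to day 41. The steps span unequal numbers of days, and the last 2 are the longest and had the fewest genes at an unadjusted p under 0.05.

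Against day 7, the called genes numbered 45 on day 20 (0.396%), 145 on day 26 (1.28%), 575 on day 34 (5.06%), 261 on day 41 (2.3%), 746 on day 55 (6.56%) and 1066 on day 69 (9.38%). These 6 comparisons share the day 7 libraries. Against day 13 the counts were 0 on day 26 (0%), 48 on day 34 (0.422%), 14 on day 41 (0.123%), 160 on day 55 (1.41%) and 727 on day 69 (6.4%). Against day 20 they were 3 on day 34 (0.0264%), 2 on day 41 (0.0176%), 27 on day 55 (0.238%) and 50 on day 69 (0.44%). Against day 26 they were 1 on day 41 (0.0088%), 8 on day 55 (0.0704%) and 60 on day 69 (0.528%). Day 69 differed from day 34 in 2 genes and from day 41 in 2 genes (0.0176% each).

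**Figure D2:**
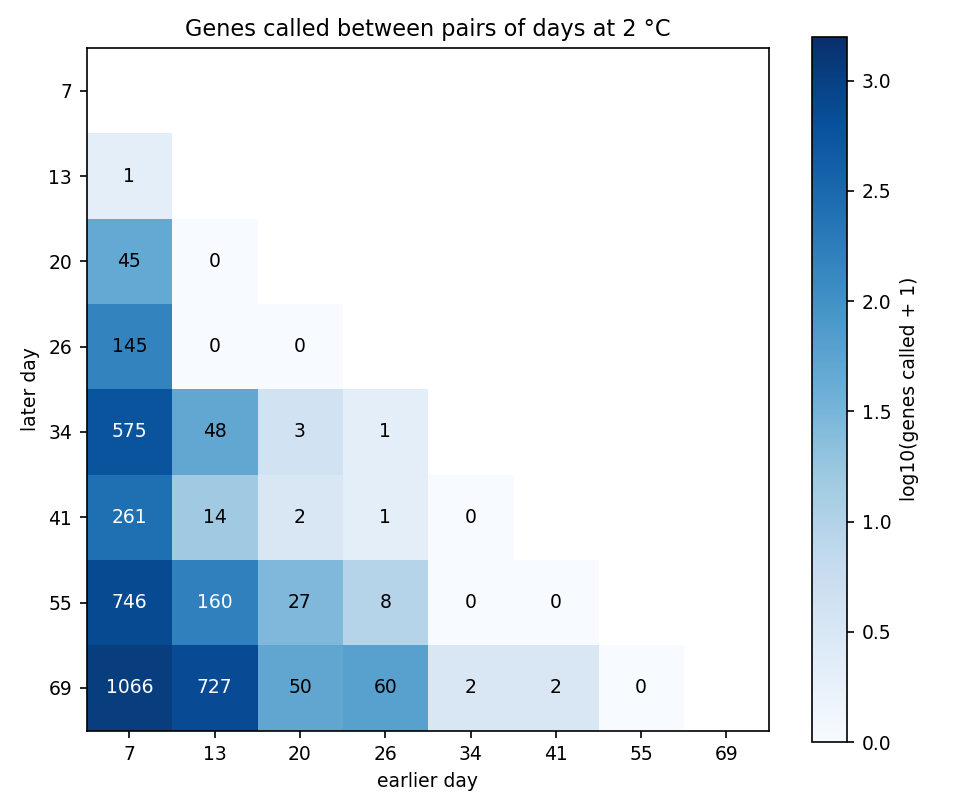
Number of genes called (edgeR, adjusted p under 0.05, of 11368 tested) for each of the 28 pairs of days, with the later day on the vertical axis, the earlier day on the horizontal axis and the shade on a log10 scale. Counts lie between 0 and 1 along the diagonal, where days are neighbours, and reach 1066 in the corner of days 69 and 7.

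The course of most genes that changed was not distinguishable from a straight line at this depth and number of libraries. A test of all 8 days at once, free of any shape, called 704 of 11368 genes (6.19%), of which 575 were also called for the line. Without replicate 2 of day 34 the count was 1299, and without replicate 1, 2 or 3 of day 7 it was 432, 368 or 420. A departure of the day means from a straight line was called in 12 genes (0.106%), 5 of them with a called line. At an unadjusted p under 0.05 the departure held 1139 genes, which is 10% of those tested, and DESeq2 called 156. Leaving out a single library gave 0 to 63 departures, the most of them without replicate 2 of day 34. A p that misses the threshold does not show that a course was straight.

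A line with a bend at day 26 was fitted to compare the slopes before and after it. The early slope was called in 395 of 10437 genes (3.78%), of which 166 rose and 229 fell, with a median size of 0.57 log2 per week. The late slope was called in 134 genes (1.28%), 67 in each direction, with a median size of 0.25 log2 per week. Over all genes tested the median sizes were 0.14 and 0.059 per week, and the median standard errors of the called slopes were 0.13 and 0.056, so the early slopes were also the less precise. Among the 866 rising genes the median slope was 0.24 log2 per week before the bend and 0.111 after it, and the early slope was the larger in 666. Among the 929 falling genes the medians were -0.264 and -0.134, and the early slope was the larger in size in 685. The share of all genes tested with the larger early slope is not given here. Their median size was also larger before the bend, so these counts do not set the rising and falling genes apart. The difference between both slopes of a gene was itself called in 63 genes (0.604%). In 26 of those the slope was positive and then negative, in 25 negative and then positive, and in 12 it kept its sign and became smaller. The early slopes rest on the shallow day 7 libraries. Without day 7, 0 genes were called for the early slope, 816 had an unadjusted p under 0.05, and 0 were called for the change of slope. Leaving out a single day 7 library left 154 to 221 early slopes and 13 to 17 changes of slope. The late slopes rest on the last day, since 1 gene was called without day 69, and 39 were called without replicate 2 of that day. The part of depth in these results was not tested beyond these fits.

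More genes lay closer to a line in log2 day than to a line in day number, and most were called on both scales. The slope against log2 day was called in 1877 genes, 936 rising and 941 falling, and 1605 were called on both scales. Of the 2067 genes called on either scale, 846 lay closer to a line in day number and 1221 closer to a line in log2 day. On the log2 scale day 7, with its shallow libraries, stands furthest from the mean of the days. The difference between the scales was not tested, and no fit in log2 day without day 7 is given.

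The trend was read again in libraries that had not chosen the genes. For each replicate number in turn, genes were called for the line without the 8 libraries of that number and their change was then fitted in those 8 alone. The change had the same direction for 97.2%, 100% and 98.6% of rising genes and for 87.8%, 99.2% and 98.7% of falling genes, in the order of the replicate number left out, against 67.6%, 78% and 73% of all genes tested. The median change of rising genes in the left-out libraries was 1.08, 1.74 and 1.22 on the log2 scale, and that of falling genes -0.95, -1.97 and -1.56. Replicate 1 contains the shallow day 13 library and gave the smallest values of both. In the left-out libraries the rising genes averaged -0.70 ± 0.23 on day 7, -0.17 ± 0.09 on day 20, 0.23 ± 0.17 on day 34 and 0.71 ± 0.20 on day 69, relative to the mean of the days (log2 CPM, SD over 3 replicate numbers). The falling genes averaged 0.96 ± 0.27, 0.29 ± 0.01, -0.20 ± 0.24 and -0.69 ± 0.15 on the same days. Their values on days 34 and 41 were equal at this rounding.

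**Figure D3:**
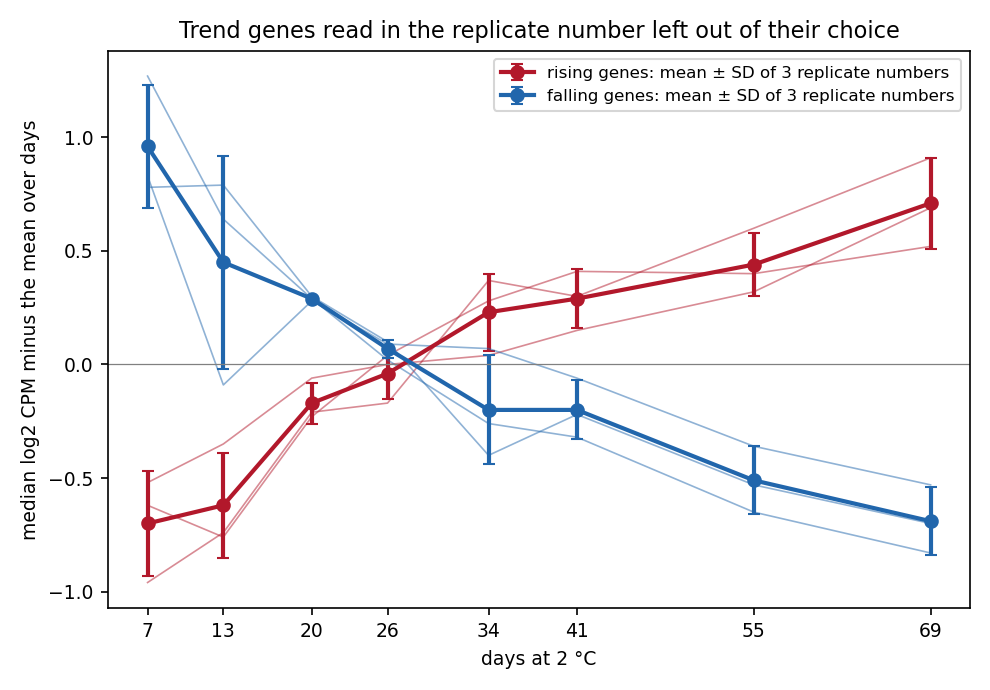
Median log2 CPM minus the mean over days of genes called for the line, read in the replicate number that was left out of the choice, against days at 2 °C; thin lines are the 3 replicate numbers, and points with bars are their mean ± SD. Rising genes climb to 0.71 and falling genes decline to -0.69 on day 69.

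Day 7 lay close to the line that the later days drew, and day 0 did not. Genes were called for the line on days 13 to 69 alone, and 381 rising and 427 falling genes were then read in the day 7 and day 0 libraries, which had no part in the choice. On day 7 the rising genes lay at -0.53, -0.76 and -0.75, a mean of -0.68 ± 0.13 (median log2 CPM relative to days 13 to 69, SD, n = 3), and the median of their fitted lines at day 7 was -0.70. The falling genes lay at 0.70, 0.90 and 0.79 on day 7, a mean of 0.80 ± 0.10, and their lines at 0.86. Day 69 helped choose the genes, and there the falling genes averaged -0.71 ± 0.02 where the lines gave -0.92. The rising genes averaged 0.73 ± 0.18 on day 69, where the lines gave 0.75. Closeness on day 7 therefore does not show that the course was straight. On day 0, before the chambers, the rising genes lay at -0.42, -0.05 and 0.10, a mean of -0.12 ± 0.27, where the lines gave -0.86. The falling genes lay at 0.63, 0.10 and 0.06 on day 0, a mean of 0.26 ± 0.32, where the lines gave 1.06. The day 7 and day 0 libraries did not overlap for either group of genes, with the rising genes lower and the falling genes higher on day 7. The day 0 libraries held 2094763, 1452303 and 922797 counts, and replicate 1 stood nearest to day 7. They were made in the same library set, and the sample number in their labels is shared by all 3, so they may come from 1 sample.

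**Figure D4:**
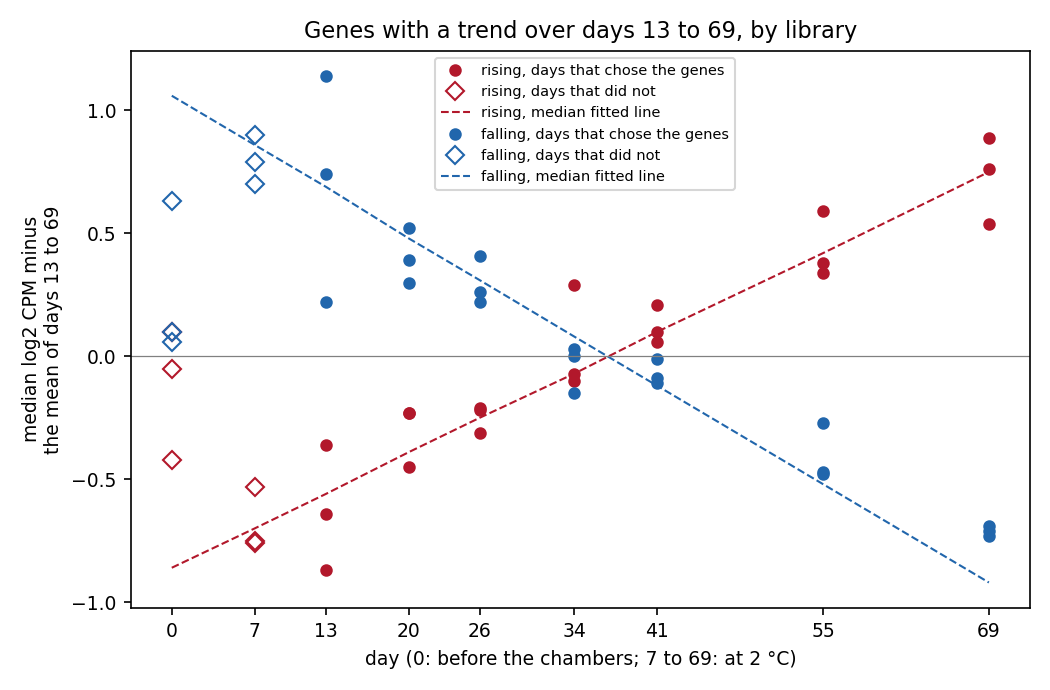
Median log2 CPM, relative to the mean of days 13 to 69, of 381 rising and 427 falling genes called on days 13 to 69, against day; each point is 1 library, filled where it helped choose the genes and open where it did not, and dashed lines are the median of the fitted lines. The open points of day 7 lie near the dashed lines, and those of day 0 lie between the lines and 0 or beyond 0.

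The genes that differed among days were sorted into set shapes by the days of their highest and lowest means. Of the 704 genes called for the day effect, 310 were falling (highest on days 7 to 20 and lowest on days 41 to 69) and 231 rising (the opposite), which is 44% and 32.8%. A further 73 peaked and 68 had their trough on day 26 or 34 (10.4% and 9.66%), and 22 had another shape. Among all genes tested these shapes took 19%, 22.3%, 21.7% and 16%. Day 7 was the highest day of 42.8% and the lowest of 27% of the 704 genes, and day 69 the highest of 23.7% and the lowest of 27.4%. Over all genes tested, day 7 was the highest of 19.5% and the lowest of 15%, and day 69 the highest of 15.1% and the lowest of 13.8%. The 73 genes with a middle peak averaged -0.80 ± 0.11 on day 7, 0.05 ± 0.15 on day 26, 0.63 ± 0.34 on day 34 and 0.06 ± 0.15 on day 41 (median log2 CPM relative to the mean of the temperature, SD, n = 3). The 68 genes with a middle trough averaged 1.09 ± 0.18, -0.10 ± 0.24, -0.80 ± 0.23 and -0.09 ± 0.17 on those days. The choice of these classes fixes their shape at 2 °C, and their values there are a description.

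**Figure D5:**
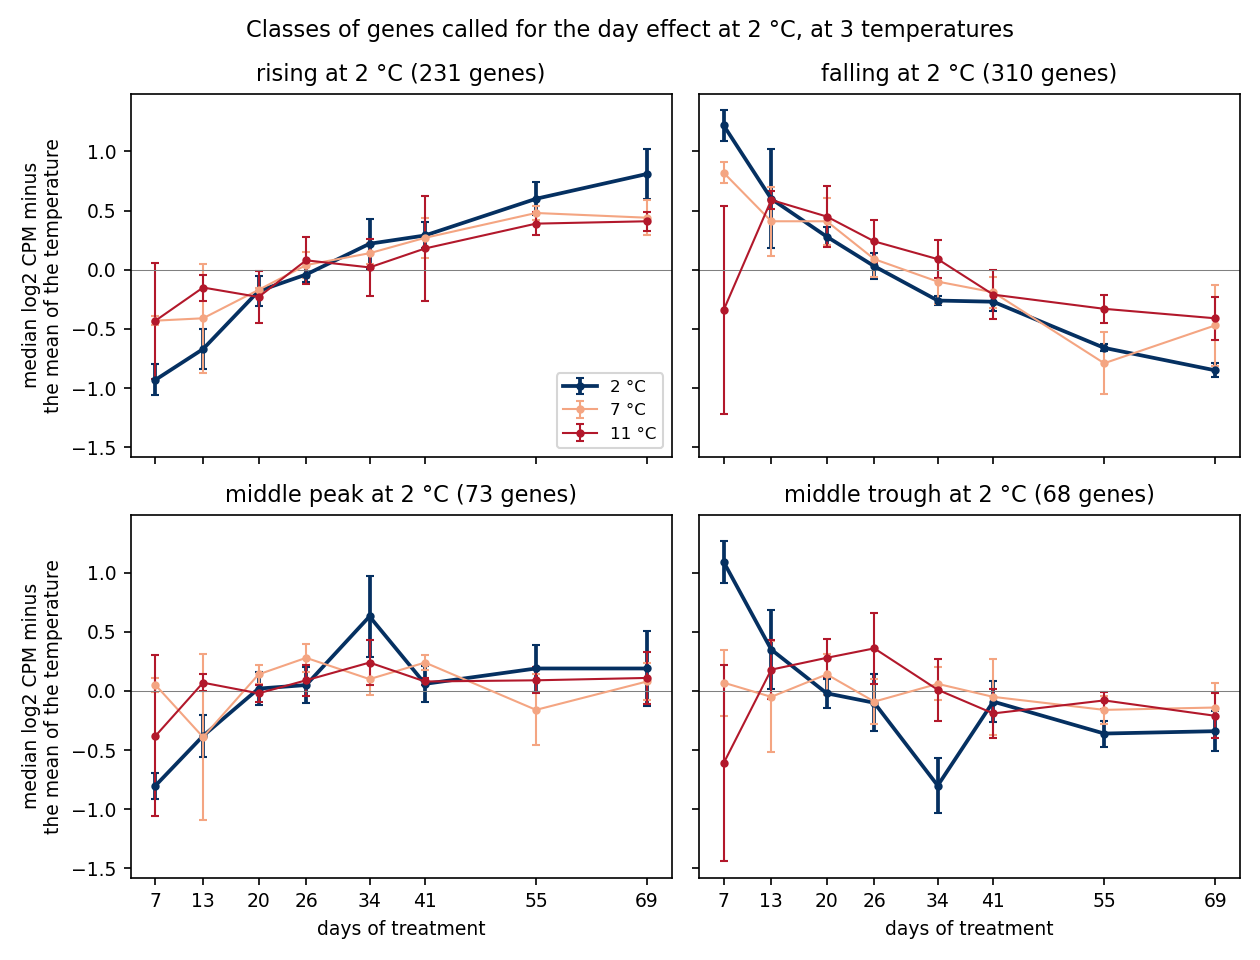
Median log2 CPM, minus the mean of the temperature, of 4 classes of genes called for the day effect at 2 °C, against days of treatment at 2, 7 and 11 °C; points are the mean and bars the SD of 3 libraries. The classes were formed at 2 °C, where the middle peak stands at 0.63 and the middle trough at -0.80 on day 34.

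The deviation of day 34 from its neighbours was called in 0 genes with all libraries. Leaving out some single libraries moved that count, most of all replicate 2 of day 34. Each day between the first and the last was set against the line through the days before and after it, a comparison chosen after the counts of the steps had been seen. For day 34, edgeR called 0 of 11368 genes (0%), and the smallest adjusted p was 0.0508. At an unadjusted p under 0.05 there were 2063 genes, which is 18.1%, and DESeq2 called 206. Without replicate 3 of day 13 edgeR called 36 genes, and without replicate 3 of day 55 it called 25. Without replicate 1 or 3 of day 34 the count was 0. Without replicate 2 of day 34 edgeR called 977 genes, 571 higher and 406 lower than the line. That replicate correlated with the others of its day at 0.895 and 0.846, and those correlated with each other at 0.915. Without it, the step from day 26 held 445 genes (264 higher and 181 lower on day 34) and the step to day 41 held 281 (155 higher and 126 lower on day 41). Day 26 held 2 genes off the line (0.0176%), and days 13, 20, 41 and 55 held 0.

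The same deviation on day 34 held 0 called genes at 7 °C and at 11 °C by edgeR, and 0.831% and 3.91% of the genes there had an unadjusted p under 0.05. Other days set against their neighbours reached higher shares, up to 13.2% at 7 °C (day 55) and 5.47% at 11 °C (day 20), also with 0 called genes. The difference of the deviation between temperatures, tested directly, was called in 0 genes for 2 °C against 7 °C (0%; 1199 at an unadjusted p under 0.05) and in 0 for 2 °C against 11 °C (0%; 875). Without replicate 2 of day 34 at 2 °C these counts were 5 (0.037%) and 0. On day 34 the middle-peak genes stood at 0.10 ± 0.13 at 7 °C and 0.24 ± 0.19 at 11 °C. The middle-trough genes stood at 0.06 ± 0.14 and 0.01 ± 0.26 at these temperatures.

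Most genes that rose or fell at 2 °C had a fitted change in the same direction at the other constant temperatures, where the median change was smaller. The libraries of those temperatures had no part in the choice of the genes. Among rising genes 88.8% had a positive change at 7 °C and 85.3% at 11 °C, and among falling genes 87.2% and 87.1% had a negative one. Over all genes tested, 67.7% and 68.1% had the direction of 2 °C. The median change of the rising genes was 1.27 at 2 °C, against 0.71 at 7 °C and 0.60 at 11 °C (log2 over 62 days). That of the falling genes was -1.48 at 2 °C, against -0.90 at 7 °C and -0.83 at 11 °C. The genes were chosen for their change at 2 °C, which favours a larger value there.

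The difference in slope between temperatures was called in few genes. Set against 7 °C, 63 of 11681 genes differed in slope (0.539%), 33 with the more positive slope at 2 °C and 30 with the more negative one. Set against 11 °C, 122 of 12130 genes differed (1.01%), 71 more positive and 51 more negative at 2 °C. The change of slope at day 26 differed from that at 7 °C in 6 of 11981 genes (0.0501%) and from that at 11 °C in 116 of 12462 (0.931%). On day 7 at 11 °C, replicates 1 and 3 held 57968 and 27485 counts. With libraries of at least 1000000 counts the slope differences numbered 3 and 65, against 7 °C and 11 °C in that order, and the differences in bend 0 and 24. That fit also leaves out all day 7 libraries of 2 °C, so it does not single out the shallow ones of 11 °C. Leaving out replicate 1, 2 or 3 left 2 to 20 and 13 to 51 slope differences.

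The named genes differed in how they stood beside 11 °C. They were chosen for the size of their change in the same 2 °C libraries. That choice favours a larger difference from the other temperatures, and the p-values given for these genes do not allow for it. Gene 34909 had 128, 98.6 and 70.7 CPM on day 69 at 2 °C, against 20.4, 11.1 and 17.6 CPM at 11 °C. Its slope exceeded that at 11 °C by 4.25 ± 0.91 (log2 over 62 days, SE, edgeR adjusted p 0.00713), a call lost without replicate 2 (adjusted p 0.228) or replicate 3 (adjusted p 0.0873). Gene 9282 had 51.7, 103 and 193 CPM on day 69 at 2 °C, against 7.78, 3.39 and 5.04 CPM at 11 °C. Its slope exceeded that at 11 °C by 4.22 ± 0.77 (edgeR adjusted p 0.00106), and by 4.19 in libraries of at least 1000000 counts (adjusted p 0.00271), but without replicate 2 or 3 the adjusted p was 0.14 or 0.0507. On day 69 the libraries of both temperatures did not overlap for either gene.

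Gene 6616 had 55.3, 63.9 and 79.6 CPM on day 7 at 2 °C, against 17.3, 11.3 and 36.4 CPM at 11 °C, where 2 of the 3 libraries held 1 count each. Its slope was lower than that at 11 °C by a log2 difference of -5.05 ± 1.06 (edgeR adjusted p 0.00533), and this was -1.80 (adjusted p 0.645) in libraries of at least 1000000 counts. That fit leaves out all 3 day 7 libraries of 2 °C, where this gene was highest, as well as the shallow ones of 11 °C. Leaving out replicate 1, 2 or 3 gave an adjusted p of 0.0578, 0.0758 or 0.154. Gene 5942 had a slope difference of 0.04 ± 0.89 from 11 °C (edgeR adjusted p 0.996). Against 7 °C the slope differences of the 4 genes were 1.67 ± 0.90, 1.74 ± 0.71, -0.79 ± 0.93 and -3.52 ± 1.36 for genes 34909, 9282, 5942 and 6616, with edgeR adjusted p from 0.274 to 0.824.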

How the data were processed

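RNA of buds was read with a QuantSeq 3′ kit, which gives reads near the end of a transcript, so counts are not scaled by length. Sequencing gave reads of 85 bases with 95 libraries per lane, per the labels' protocols. The table, as deposited, holds the authors' whole-number counts per gene, not normalized, for 42413 lines, of which 24351 had a count at 2 °C. The submitters' processing notes name FastQC, STAR and DESeq2 without role or version. The counting tool, genome build, annotation and any molecular identifiers are not given in the sources used here, so floors cover counting error only.

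Tests on the counts used glmQLFit and glmQLFTest of edgeR 4.0.16 (R 4.3.3) after filterByExpr, TMM scaling and estimateDisp, with Benjamini-Hochberg adjustment over all genes of each fit and calls at an adjusted p under 0.05. Day entered as a factor, as a number, or as a line with a bend at day 26. CPM is a count divided by the library total, times 1000000; medians of log2 CPM used TMM totals and a prior count of 2. Chosen, among called genes averaging at least 10 CPM, were the largest steady rise and fall and the largest uneven rise and fall; 0 genes met the uneven rise, so a second steady rise was taken, and 4 met the uneven fall. The members, classes and tests were chosen with earlier results of these data known. Scripts were tested on simulated data. Alternatives were DESeq2 1.42.0, RLE scaling, no filter, the replicate number as a block, libraries of at least 1000000 counts, a within-day axis or log2 total as a covariate, log2 day, and leaving out days, replicates and libraries. The 81 columns of other groups were not used. Among them are the 4 °C libraries, of another library set, which were planned as a comparison. They were analysed at first and then left out with their results known, for a bookkeeping reason (the numbers in their column names), so the comparisons with other temperatures are not the whole planned set. No columns used were identical. Deviations of same-numbered libraries correlated at a mean of 0.016 over 84 pairs (-0.514 to 0.595), so the numbers were not taken to pair the libraries. A planned description of gene families and any sequence needed gene identifiers and was not run.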

Additional observations from a re-analysis of the deposited data

Results flagged for a closer look

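These results were marked because the course over days at 2 °C differed from that at another temperature by a test of the difference itself (edgeR, adjusted p under 0.05). The slope at 2 °C differed from that at 7 °C in 63 genes and from that at 11 °C in 122 genes. The change of slope at day 26 differed from that at 7 °C in 6 genes and from that at 11 °C in 116 genes. DESeq2 called 147, 257, 98 and 410 genes for these 4 comparisons. Among the named genes, the slope minus that at 11 °C was 4.25 for gene 34909, 4.22 for gene 9282 and -5.05 for gene 6616 (log2 over 62 days). These genes were chosen for their change at 2 °C, which favours a larger difference. At 11 °C, 2 of the 3 day 7 libraries held under 100000 counts, and their part in the differences was not tested. The fit of libraries with at least 1000000 counts also leaves out the 3 day 7 libraries of 2 °C, so it does not single them out.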

How the results depend on the processing

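The numbers below are genes called at an adjusted p under 0.05. They are given in the order day effect, line, departure from a line, early slope, late slope and change of slope, which with edgeR and all libraries were 704, 1795, 12, 395, 134 and 63. DESeq2 called 1602, 2075, 156, 600, 298 and 149, no filter on low counts gave 2148, 1801, 802, 337, 101 and 60, and the within-day axis as a covariate gave 1978, 2125, 218, 627, 270 and 117. This covariate was computed from the same counts. The log2 total as a covariate gave 357, 1118, 3, 201, 123 and 42, and its early slopes were positive in 31.8%, against 42% without it; of its lines 40.9% were positive. Libraries of at least 1000000 counts, which leaves out day 7 and replicate 1 of day 13, gave 130, 877, 0, 1, 65 and 0. RLE scaling gave 727, 1810, 18, 402, 133 and 63.

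Without day 7 the counts were 99, 816, 0, 0, 75 and 0, and without day 69 they were 444, 890, 0, 304, 1 and 1. Departures numbered 28, 8, 4, 4, 1 and 22 without day 13, 20, 26, 34, 41 or 55. Late slopes numbered 65, 30 and 42 without day 20, 26 or 55, and changes of slope 40 and 32 without day 20 or 26. The line was called in 816 to 1989 genes without any 1 day.

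Over leaving out a replicate number or a single library, the 6 counts ran from 64 to 1299, 438 to 1963, 0 to 63, 26 to 444, 3 to 159 and 0 to 84. The highest day effect and departure came without replicate 2 of day 34. The 7 steps in order of time ran from 0 to 2, 0 to 7, 0 to 18, 0 to 445, 0 to 281, 0 to 2 and 0 to 0, and the deviation of day 34 from 0 to 977. Slope differences ran from 2 to 20 (7 °C) and 13 to 51 (11 °C), and differences in bend from 0 to 2 and 1 to 21.

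For the steps, DESeq2 called 10, 29, 0, 109, 9, 12 and 1 genes, no filter gave 90, 120, 46, 586, 148, 47 and 28, and the within-day axis gave 3, 0, 2, 1098, 10, 2 and 2. The log2 total gave 2, 5, 0, 1, 0, 0 and 0, and the 6 steps left in libraries of at least 1000000 counts held 3, 0, 0, 0, 0 and 0. For the deviation of day 34, DESeq2 called 206, no filter gave 638, RLE scaling 9 and the within-day axis 957. For the slope differences from 7 and 11 °C and the differences in bend, DESeq2 called 147, 257, 98 and 410, and libraries of at least 1000000 counts gave 3, 65, 0 and 24.

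Blocking on replicate number gave 6 counts of 651, 1817, 9, 422, 123 and 61, and under the block the step to day 13 held 0 genes and the step to day 34 held 2. The slope difference of gene 5942 from 11 °C, 0.04 with an adjusted p of 0.996, was -0.01 with DESeq2 and ran from -0.97 without replicate 1 to 0.88 without replicate 3. The lines of genes 34909, 9282 and 5942 kept their direction and stayed called under the 42 alternatives run for each. That of gene 6616, which fell under the filter on low counts in 15 settings, kept its direction in the 27 others and was called in 26 of them. Except where the setting itself shows it, as with fewer libraries, the cause was not tested.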

Other observations

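The main axis of the spread between libraries of the same day at 2 °C held 28.1% of that spread, and its ends were 2 libraries of day 13, replicate 1 at 0.76 and replicate 3 at -0.851. Before treatment, gene 5942 had 280, 33.1 and 28.2 CPM and gene 6616 had 25.8, 69.5 and 55.3 CPM on day 0. Gene 34909 had 7.64, 9.64 and 22.8 CPM and gene 9282 had 3.34, 1.38 and 5.42 CPM in the same libraries.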
